A study of Mus musculus with 16 samples.

Results

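Acute-phase proteins and inflammatory chemokines were followed through 12 RNA libraries of male mouse germline stem cells (GSCs) kept in culture, the counterpart of the stem cells of spermatogenesis. The set held 9 of the 27128 genes in the deposited tables. Lcn2, Saa3 and C3 encode acute-phase proteins, Il6 a cytokine, and Cxcl1, Cxcl5, Ccl2, Ccl7 and Cxcl16 chemokines. The genes were picked by symbol, with their levels in these same libraries already known, so their values are given as a description and no test is attached to them. 8 of the 9 genes passed a filter of a mean of at least 1 CPM (counts corrected for library size) over the libraries, and Il6 did not.

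All cells carried the Oct4-GFP reporter of B6;CBA-Tg(Pou5f1-EGFP)2Mnn/J, in which GFP is driven by Pou5f1 (Oct4) sequences, and came from mice at postnatal day 5.5. Oct4+/KIT- cells had been sorted and then grown in StemPro-34 SFM, which contains no serum, plus GDNF, bFGF and EGF. There were 4 experiments. In the feeder-removal experiment, day 0 was a culture on mouse embryonic fibroblasts (MEF), and days 4 and 9 were cultures at those times after the move to Matrigel, a basement membrane extract. In the density experiment, epithelial-like GSCs grew on Matrigel at 0.1 µg/cm2 and mesenchymal-like GSCs at 10 µg/cm2. In the sorted experiment, cultures at 10 µg/cm2 were divided by GFP into low, mid and high fractions. In the inhibitor experiment, cultures on MEF received DMSO, the solvent control, or UNC0638, an inhibitor of the H3K9 methyltransferase G9a, at 0.5, 1 or 2 µM. UNC0638 was given for 48 hours, and the labels do not give the time with DMSO. With 1 library in each group, the spread between cultures is unknown and none of the differences could be checked in a replicate.

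Totals ran from 4335185 to 12019651 expected counts per library, and a floor of 3 counts was worth 0.238 to 0.724 CPM. All 19 germ-cell genes over the filter were above that floor in every library, and their summed level lay between 4735 and 7140 CPM. Genes of other cell types were also present. Summed over 20 fibroblast genes, the level was 7185 CPM in the mesenchymal-like library, 3640 CPM with DMSO, 1219, 496 and 613 CPM at the rising UNC0638 doses, and 126 to 332 CPM in the other libraries. Summed over 25 macrophage and myeloid genes, it was 2249, 2086 and 326 CPM from GFP-low to GFP-high and 48.9 to 99.5 CPM elsewhere. Summed over 19 interferon-response genes, it was 2537 to 2638 CPM at days 0, 4 and 9 and 170 to 333 CPM in the other libraries. In bulk RNA of this kind, fewer cells of a type and less RNA per cell cannot be told apart.

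The acute-phase response is the change in secreted proteins that follows infection or injury, classically in the liver and also in fibroblasts, epithelia and macrophages. Interleukin-1, tumour necrosis factor and Il6 drive it through the transcription factors NF-kB, C/EBP and STAT3. Chemokines are small secreted proteins that attract leukocytes along a gradient, and fibroblasts and macrophages are among their known sources.

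The promoters are shown because the members differ in which letters of these factors' motifs they hold. RefSeq windows of build GRCm38.p6 were found for Lcn2, Saa3, C3, Cxcl1 and Il6, 5 of the 9 genes, and Cxcl5, Ccl2, Ccl7 and Cxcl16 were not matched. The 250 bases before the start given in that table are printed 5′ to 3′ on the gene's own strand, with capitals for matches on either strand to the NF-kB consensus or to TTNNGNAA, a C/EBP-type motif. Lcn2 is on the minus strand (chr2:32387740-32387989), Saa3 on the minus strand (chr7:46715677-46715926), C3 on the minus strand (chr17:57228137-57228386), Cxcl1 on the plus strand (chr5:90890995-90891244) and Il6 on the plus strand (chr5:30012864-30013113). The Saa3 window lies inside the RefSeq span of the gene, so its start is not the outermost end of that span.
Lcn2: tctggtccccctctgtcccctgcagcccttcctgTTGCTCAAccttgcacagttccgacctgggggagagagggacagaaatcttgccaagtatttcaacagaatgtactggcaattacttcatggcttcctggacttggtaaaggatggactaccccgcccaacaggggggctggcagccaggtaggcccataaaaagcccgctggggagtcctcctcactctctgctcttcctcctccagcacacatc
Saa3: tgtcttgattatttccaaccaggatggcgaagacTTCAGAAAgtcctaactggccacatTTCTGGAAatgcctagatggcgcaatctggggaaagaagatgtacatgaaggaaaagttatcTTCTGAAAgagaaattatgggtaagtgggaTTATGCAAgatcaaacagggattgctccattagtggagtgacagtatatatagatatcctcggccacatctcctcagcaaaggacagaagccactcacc
C3: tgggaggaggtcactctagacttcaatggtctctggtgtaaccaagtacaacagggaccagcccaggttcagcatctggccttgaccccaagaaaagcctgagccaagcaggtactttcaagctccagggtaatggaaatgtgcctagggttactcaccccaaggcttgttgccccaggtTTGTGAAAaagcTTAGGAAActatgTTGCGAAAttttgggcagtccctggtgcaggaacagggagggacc
Cxcl1: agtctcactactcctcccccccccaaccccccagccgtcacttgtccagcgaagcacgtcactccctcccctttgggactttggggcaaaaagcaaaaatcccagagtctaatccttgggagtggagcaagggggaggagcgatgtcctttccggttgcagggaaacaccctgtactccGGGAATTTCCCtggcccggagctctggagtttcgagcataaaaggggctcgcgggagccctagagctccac
Il6: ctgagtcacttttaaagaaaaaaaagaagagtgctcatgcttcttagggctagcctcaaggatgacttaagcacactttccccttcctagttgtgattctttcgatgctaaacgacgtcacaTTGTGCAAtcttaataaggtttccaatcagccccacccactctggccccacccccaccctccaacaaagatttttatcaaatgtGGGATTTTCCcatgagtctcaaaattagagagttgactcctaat

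The NF-kB consensus was present in 2 of the 5 windows and in 7.25% of the 32851 RefSeq windows of the same length. In Cxcl1 it was read on both strands in overlapping positions, starting 71 bases before the start on the gene's strand, and in Il6 it began 44 bases before the start. TTNNGNAA was present in 4 of the 5 windows and in 36.8% of all windows. Saa3 held 4 matches, at 216, 191, 129 and 99 bases before the start, C3 held 3, and Lcn2 and Il6 held 1 each. Of 2 further motifs searched on both strands, TTCNNNGAA, a STAT-type motif, was in 0 of the 5 windows and in 7.02% of all windows. TGANTCA, an AP-1-type motif, was in 1 of the 5, that of Il6, and in 6.75% of all windows. A match is only a match of letters, and its absence says only that these letters are not in the window.

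The acute-phase genes were described first. Lcn2 encodes lipocalin-2, a secreted protein that binds bacterial iron carriers (GRCm38.p6 chr2:32384637-32387739). It had 30, 38 and 418 expected counts at days 0, 4 and 9, or 8.94, 7.53 and 85.2 TPM (the deposited scale that allows for gene length). It had 0 counts in the epithelial-like library and 63 in the mesenchymal-like library (30.7 TPM). From GFP-low over GFP-mid to GFP-high it had 447, 307 and 30 counts, or 131, 59.1 and 8.31 TPM. Lcn2 was thus high at day 9 within the feeder-removal experiment and lower in each brighter fraction of the sorted one. With DMSO and 0.5, 1 and 2 µM UNC0638 it had 654, 818, 388 and 459 counts, or 301, 362, 153 and 235 TPM. All 4 libraries of the inhibitor experiment lay above the 8 others, and the library at 0.5 µM was the highest of the 12.

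Saa3 encodes a serum amyloid A protein made largely outside the liver (chr7:46711998-46719615). It had 153, 216 and 156 counts at days 0, 4 and 9, or 84.0, 79.6 and 58.6 TPM. It had 0 counts in the epithelial-like and 10 in the mesenchymal-like library (9.01 TPM). The sorted fractions had 1290, 2686 and 159 counts from low to high GFP, or 711, 970 and 83.4 TPM. The inhibitor experiment had 2107, 1302, 475 and 802 counts at DMSO and the rising doses, or 1785, 1066, 345 and 756 TPM. With DMSO, Saa3 was the 57th highest of all 27128 genes by TPM, and it was the highest of the 9 genes by TPM in every library of the inhibitor and sorted experiments.

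C3 encodes the central complement protein (chr17:57203967-57228136). It had 52, 43 and 74 counts at days 0, 4 and 9 (2.19, 1.19 and 2.13 TPM), and 9 and 55 counts at the low and the high Matrigel density (0.62 and 3.76 TPM). The sorted fractions had 197, 333 and 71 counts from GFP-low to GFP-high (7.96, 8.88 and 2.70 TPM). DMSO and the rising doses gave 203, 159, 101 and 69 counts (13.2, 9.91, 5.65 and 5 TPM). C3 was above 3 counts in all 12 libraries, and per length it stayed below Lcn2 wherever Lcn2 was detected.

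Il6, the cytokine that drives the liver's acute-phase response (chr5:30013114-30019975), was close to absent from the libraries. It had 9 counts in the mesenchymal-like library (3.28 TPM), 3 at day 9, 3 at 0.5 µM UNC0638, 2 with DMSO and 0 in the other 8. A total of 0 to 3 counts is at or under the smallest visible level, so in 11 of 12 libraries Il6 was not detectable at this depth.

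The chemokines that attract neutrophils were Cxcl1 and Cxcl5, both ligands of Cxcr2, whose genes lie on chromosome 5 (Cxcl1 chr5:90891245-90893121 and Cxcl5 chr5:90759298-90761625). Cxcl5 had 66, 104 and 56 counts at days 0, 4 and 9, or 9.19, 9.58 and 5.33 TPM. It had 0 counts in the epithelial-like library and in all 3 sorted fractions, and 11 in the mesenchymal-like library (2.5 TPM). In the inhibitor experiment it had 498, 343, 107 and 128 counts from DMSO to 2 µM, or 107, 70.9, 19.8 and 30.7 TPM. Cxcl5 was seen in all 7 libraries of the feeder-removal and inhibitor experiments, and in 1 of the other 5. The use of feeders and the experiment cannot be told apart here. Cxcl1 had 6, 20 and 30 counts at days 0, 4 and 9, 1 and 9 at the low and high density, 2, 11 and 15 from GFP-low to GFP-high, and 54, 39, 39 and 21 from DMSO to 2 µM. Its highest level was 23.8 TPM, with DMSO. It was below Cxcl5 at days 0 and 4 and in the 4 inhibitor libraries by TPM, and above it in the other 6, which include day 9 (5.85 and 5.33 TPM).

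Ccl2 and Ccl7 attract monocytes through Ccr2, and their genes lie 8.259 kb apart on chromosome 11 (Ccl2 chr11:82035577-82037452 and Ccl7 chr11:82045712-82047525). Ccl2 had 313, 471 and 343 counts at days 0, 4 and 9, or 99.95, 100.1 and 74.9 TPM. It had 13 counts in the epithelial-like and 641 in the mesenchymal-like library, or 6.70 and 334 TPM. The sorted fractions had 11, 13 and 10 counts, at most 3.46 TPM, and DMSO and the rising doses gave 341, 149, 74 and 98 counts (168, 70.7, 31.4 and 53.8 TPM). Ccl7 had a like pattern: 312, 535 and 292 counts in the feeder-removal experiment, 8 and 480 in the density experiment, 3, 27 and 24 in the sorted fractions, and 262, 118, 70 and 87 in the inhibitor experiment. The ratio of Ccl7 to Ccl2 counts lay between 0.615 and 1.14 in the 9 unsorted libraries. In GFP-low it was 0.273 (95% counting interval 0.0489 to 1.03), and in GFP-mid and GFP-high 2.08 (1.04 to 4.38) and 2.40 (1.11 to 5.62), all from few reads.

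Cxcl16 encodes a membrane-bound chemokine that is also a scavenger receptor (chr11:70454389-70459984). It varied least of the 9, from 3.46 TPM in the epithelial-like library to 11.5 TPM at day 0. The feeder-removal libraries had 9.19 to 11.5 TPM, the inhibitor libraries 4.20 to 5.04 TPM and the sorted fractions 6.47 to 7.88 TPM. Its expected count was not whole in 11 of 12 libraries, which is how reads shared with another gene appear, so its level is uncertain. The other 8 genes had whole counts in every library.

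**Figure D1:**
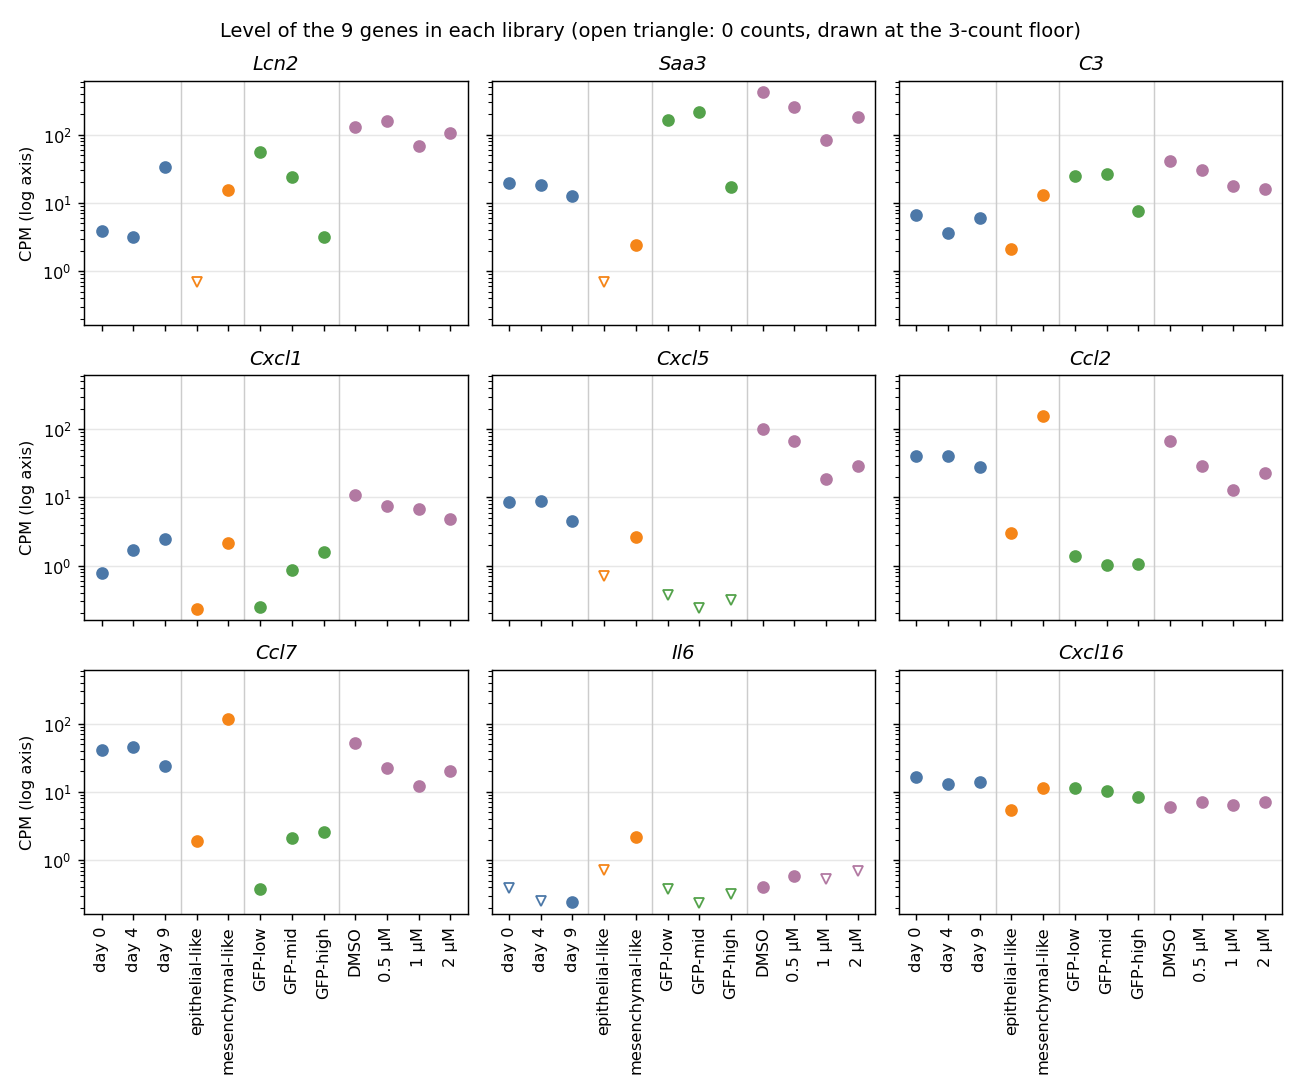
Level of each of the 9 genes in each of the 12 libraries in CPM on a log axis, coloured by experiment, 1 point per library, with an open triangle at the 3-count level where a gene had 0 counts. Lcn2 is highest in the 4 inhibitor libraries, followed by GFP-low, day 9 and GFP-mid, whereas Ccl2 and Ccl7 are highest in the mesenchymal-like library and low in all sorted fractions.

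Ratios between libraries were computed as the log2 ratio of CPM + 1, and a gene was called at a difference of at least 2-fold. Adding 1 makes the ratios of low genes too small. Counting intervals (95%, Clopper-Pearson) were taken from how the reads divide between the 2 libraries, with nothing added, and amplified reads are not independent molecules, so they cover counting error only. The fold differences are ratios of CPM without the pseudocount. The comparisons within an experiment share a library (day 0, GFP-low or DMSO), so they are not independent of each other.

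At day 9 after feeder removal, Lcn2 differed most of the 8 genes. Its level was 8.74-fold higher at day 9 than at day 0 (counting interval 6.03 to 13.1), a log2 ratio of 2.84. It was 1 of 8 genes called higher at day 9, and none was called lower. Over all 14301 genes, 1.62% were called higher and 0.979% lower. At day 4, none of the 8 was called higher or lower, and 1.25% and 1.03% of all genes were, while Lcn2 had a log2 ratio of −0.21 (interval −1.003 to 0.47). C3 had one of −0.74 at day 4 and was 1.85-fold lower without the pseudocount, and Cxcl1 had 0.60. The other acute-phase genes did not follow Lcn2 at day 9: the log2 ratios of Saa3 and C3 were −0.61 and −0.14. Ccl2, Ccl7 and Cxcl5 had log2 ratios of −0.52, −0.74 and −0.78, and Cxcl1 0.95 from 6 and 30 counts. Without the pseudocount Cxcl1 was 3.14-fold higher (interval 1.29 to 9.22), and it was called with a pseudocount of 0.1 (1.53) and on the TPM values (1.34), which made 2 of 8. Of other acute-phase genes, Cfb, a complement factor, was called higher at day 9, but from low levels of 0 CPM on day 0 and 1.71 CPM on day 9. Ptx3, a pentraxin, was called lower, at 14.1 CPM on day 0 and 0.813 CPM on day 9. The summed fibroblast genes were at 332 CPM on both days, but single genes moved in both directions. From day 0 to day 9, Tnc went from 9.59 to 26.4 CPM and Twist2 from 6.74 to 2.60 CPM.

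Between the Matrigel densities, 7 of 8 genes were called higher in the mesenchymal-like library, where 10.7% of all genes were higher, and none was called lower, where 1.78% were. The median log2 ratio of the 8 was 2.03, and that of all genes −0.06. The monocyte chemokines differed most by the log2 ratio of CPM + 1. Ccl2 was 50.7-fold higher (interval 29.5 to 95.8) and Ccl7 61.7-fold higher (31.1 to 144). Lcn2, with 0 counts in the epithelial-like library, was at least 21.6-fold higher against a level of 3 counts, and Saa3, Cxcl5 and Il6 were at least 3.43-fold, 3.77-fold and 3.09-fold higher. C3 was 6.29-fold higher (3.08 to 14.5), and Cxcl1 rested on 9 counts against 1. Cxcl16 was not called, at a log2 ratio of 0.95. With a pseudocount of 5, Saa3, Cxcl1 and Cxcl5 were not called either, which left 4 of 8. Csf1, the macrophage growth factor, had 10.3 CPM in the epithelial-like and 429 CPM in the mesenchymal-like library. 18 of 19 fibroblast genes were called higher in the same library, with a median log2 ratio of 4.45, and their part in the chemokine levels was not tested. The log2 ratio of Ccl2 (5.26) lay above those of 14 of the 19 and below those of 5, and that of Lcn2 (4.02) lay above 8 and below 11.

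Of the 8 genes, Lcn2 and Saa3 differed most between GFP-low and GFP-high. From GFP-low to GFP-high, Lcn2 was 17.6-fold lower (log2 ratio −3.77, interval −4.72 to −3.60), Saa3 9.58-fold lower (−3.19, −3.51 to −3.02) and C3 3.28-fold lower (−1.59, −2.13 to −1.31). These 3 were the genes called lower of the 8, where 2.59% of all genes were lower. Ccl7 and Cxcl1 were called higher, where 6.94% of all genes were higher, but from 3 and 2 counts in GFP-low, and neither was with a pseudocount of 5. Ccl2 and Cxcl16 had log2 ratios of −0.21 and −0.40, and Cxcl5 had 0 counts in each fraction. From GFP-low to GFP-mid, only Lcn2 of the 8 was called lower (log2 ratio −1.17, interval −1.42 to −0.99), where 0.685% of all genes were lower. Saa3 had a log2 ratio of 0.39 and C3 of 0.09 in that comparison. Ccl7 was called higher, where 3.38% of all genes were, from 3 and 27 counts, and was not with a pseudocount of 5. With ratios centred on the germ-cell genes, whose median is then 0, 0.357% of all genes were lower and 5.6% higher, and the members' calls were the same. Among the other acute-phase genes, Hp (haptoglobin, which binds free haemoglobin) had 45.3, 41.2 and 4.25 CPM from GFP-low to GFP-high, and Cfb 10.5, 4.28 and 1.38 CPM.

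The sorted fractions came from the same Matrigel density as the mesenchymal-like library, and their members differed in both directions. In GFP-low, Saa3 was 67.0-fold higher (interval 36.3 to 140) and Lcn2 3.68-fold higher (2.83 to 4.88) than in the mesenchymal-like library. Ccl2 was 112-fold lower, a log2 ratio of −6.03 (−7.82 to −5.96), Cxcl5 at least 7.06-fold lower, and Ccl7 had 3 counts against 480. This made 2 genes called higher and 4 lower, where 5.59% and 12.4% of all genes were. With a pseudocount of 5, Cxcl1 (−0.45) and Cxcl5 (−0.61) were not called, which left 2 lower. Those shares were 1.88% and 24.5% with ratios centred on the germ-cell genes and 7.59% and 9.77% on the deposited TPM. In the same pair, GFP-low first, the 20 fibroblast genes summed to 126 and 7185 CPM and the 25 macrophage and myeloid genes to 2249 and 99.5 CPM. The sort and the experiment cannot be told apart here.

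Lcn2 was then set beside the macrophage and myeloid genes, since neutrophils and macrophages are known sources of it. The list of 25 had 5 to 12 genes above 3 counts in the 9 unsorted libraries, summing to 48.9 to 99.5 CPM, and 22 to 24 genes above 3 counts in the sorted fractions, summing to 326 to 2249 CPM. Of the unsorted sum, Coro1a, an actin-binding protein gene, gave 27.7 to 60.6 CPM, and the lysozyme gene Lyzs gave 15.5 and 30.2 CPM in the epithelial-like and the mesenchymal-like library. The summed list stood at 75.6, 79.5 and 76.1 CPM at days 0, 4 and 9, where Lcn2 stood at 3.89, 3.22 and 34.0 CPM. It stood at 49.9 CPM with DMSO and 52.2, 48.9 and 49.3 CPM at 0.5, 1 and 2 µM UNC0638. Lcn2 stood at 130.6, 157.5, 67.7 and 105 CPM in those libraries. The summed list differed little within either experiment. Most of its genes were at or under 3 counts there, and Coro1a gave much of the sum. The sum therefore cannot show whether Lcn2 parts from myeloid RNA. Of the 25, the 9 genes Mpeg1, F13a1, Csf1r, Emr1, Tyrobp, C1qa, C1qb, C1qc and Ctss were at 0 counts at days 0, 4 and 9 and with DMSO; they were picked after their values were seen, so their zeros describe the choice. The part of macrophage and myeloid RNA in the level of Lcn2 was not tested.

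In the sorted fractions the list of 25 summed to 2249, 2086 and 326 CPM from GFP-low to GFP-high. Of the 25, 21 passed the filter, which is a mean over all 12 libraries, so a gene could pass through the fractions where it is high, and their ratios in GFP-high are shown as a description only. From GFP-low to GFP-mid, which summed to similar levels, 1 of the 21 was called lower, the lysozyme gene Lyz (−1.44). The next lowest was Fcer1g at −0.53, so Lcn2, at −1.17, was below 20 of the 21. Saa3 (0.39) was above 18 of the 21 and C3 (0.09) above 13.

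Of 16 neutrophil and granulocyte genes, 4 passed the filter (Chi3l3, Mmp9, Prtn3 and S100a8). Of those that did not, S100a9, Ltf and Fcnb had 0 counts in every library, and Ngp and Camp had at most 4. Mmp8 reached 13 counts with DMSO and Itgb2l 16 at day 4. Chi3l3, which macrophages also make, had at most 1 count outside the sorted fractions and stood at 719, 583 and 82.3 CPM from GFP-low to GFP-high. Mmp9, a gelatinase stored in neutrophil granules and also made by other cells, had 132, 67.1 and 55.5 CPM there, with a log2 ratio of −0.96 from GFP-low to GFP-mid. It was also at 15.8 to 67.8 CPM in the unsorted libraries, with the highest of these in the epithelial-like library, where Lcn2 had 0 counts. Prtn3 had 8.02, 5.54 and 6.37 CPM from GFP-low to GFP-high. S100a8 did not exceed 4.35 CPM in any library.

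**Figure D2:**
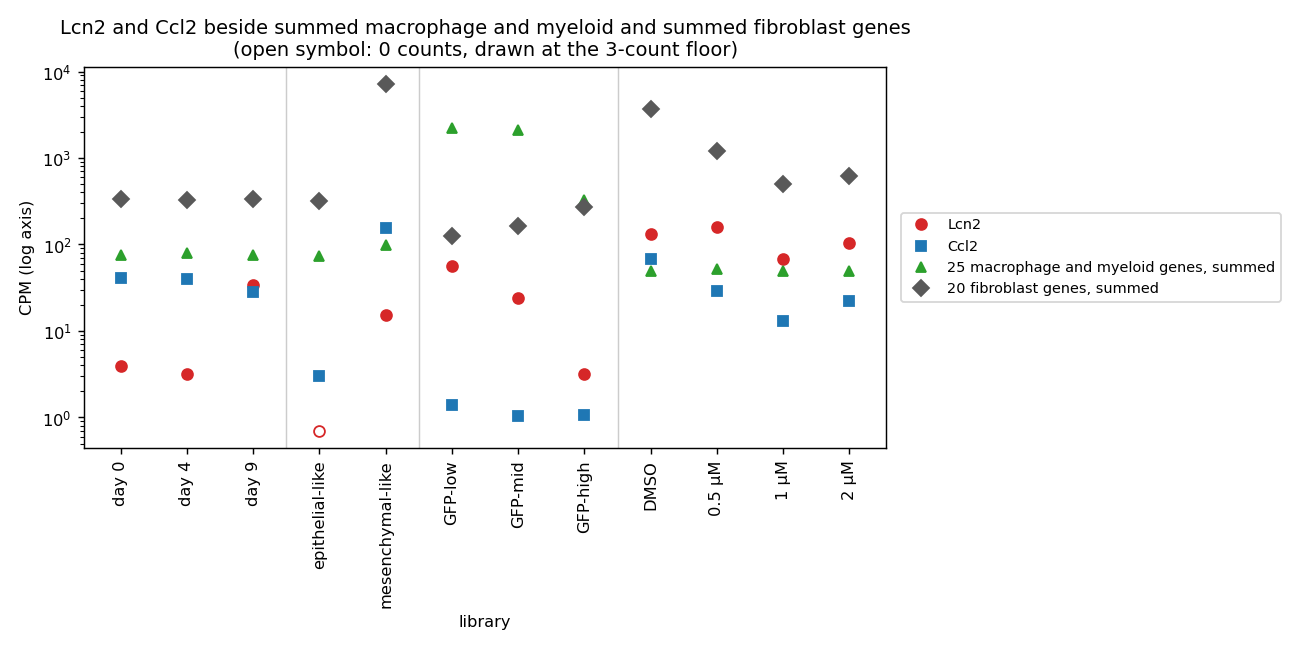
Lcn2, Ccl2, the sum of 25 macrophage and myeloid genes and the sum of 20 fibroblast genes in each of the 12 libraries, in CPM on a log axis, 1 point per library, with open symbols at the 3-count level for 0 counts. Lcn2 stands at 130.6 CPM with DMSO and 34.0 CPM at day 9, where the macrophage and myeloid genes sum to 49.9 and 76.1 CPM, and Ccl2 and the fibroblast genes are both highest in the mesenchymal-like library.

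**Figure D3:**
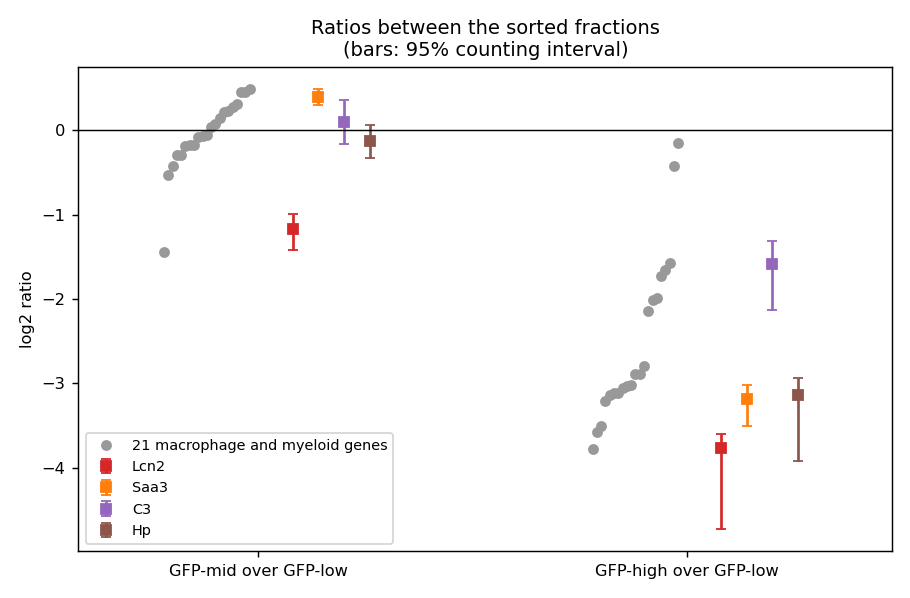
Log2 ratio of GFP-mid and GFP-high over GFP-low for 21 macrophage and myeloid genes (grey, CPM + 1) and for Lcn2, Saa3, C3 and Hp (squares, CPM + 1, with 95% counting intervals). In GFP-mid, Lcn2 lies at −1.17, below 20 of the 21 grey points. The grey genes passed a filter over all 12 libraries, so those of GFP-high show only where the points lie.

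In the inhibitor experiment, the members differed from each other in their ratios to DMSO. With 1 library per dose, an effect of UNC0638 and a difference between cultures cannot be told apart. Against DMSO, 2 of 8 genes were called lower at 0.5 µM (2.13% of all genes were), 5 of 8 at 1 µM (4.12%) and 6 of 8 at 2 µM (3.59%), and none was called higher at any dose (1.58%, 2.59% and 3.42% of all genes). The medians of the 8 were −0.53, −1.58 and −1.25, beside −0.01, 0.00 and −0.02 for all genes. With ratios centred on the germ-cell genes, 3.18% of all genes were lower and 1.04% higher at 0.5 µM, and 2.53% lower and 5.42% higher at 2 µM. Ccl2 and Ccl7 were the ones lower at the smallest dose: Ccl2 had log2 ratios of −1.22, −2.31 and −1.56, and Ccl7 of −1.17, −2.01 and −1.35. Cxcl5 had −0.58, −2.35 and −1.73, and Saa3 −0.74, −2.33 and −1.19. C3 had −0.39, −1.16 and −1.30, and Cxcl1 −0.47, −0.59 and −1.02, the last of which was not called with a pseudocount of 5 (−0.69) or with centred ratios (−0.87).

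Lcn2 was not called at any dose. Its log2 ratios were 0.27 (interval 0.12 to 0.42), −0.94 (−1.13 to −0.76) and −0.31 (−0.49 to −0.14), and Cxcl16 had 0.22, 0.09 and 0.21. Saa3, Cxcl5, Ccl2, Ccl7 and Lcn2 were lowest at 1 µM and higher again at 2 µM, so the levels did not follow the order of the doses. The ratio of Saa3 to Lcn2 TPM was 5.94 with DMSO and 2.94, 2.25 and 3.22 at the rising doses.

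The fibroblast genes moved in the same libraries. Of 19, 14, 19 and 17 were called lower at 0.5, 1 and 2 µM, where 2.13%, 4.12% and 3.59% of all genes were. Their median log2 ratios were −1.40, −2.71 and −2.30. The log2 ratio of Lcn2 lay above those of all 19 at 0.5 and 1 µM and above 18 at 2 µM, where Thy1 was higher. Ccl2 lay within their range, above 12, 12 and 14 of the 19 at the rising doses. The part of the fibroblast genes' change in the members' levels was not tested.

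**Figure D4:**
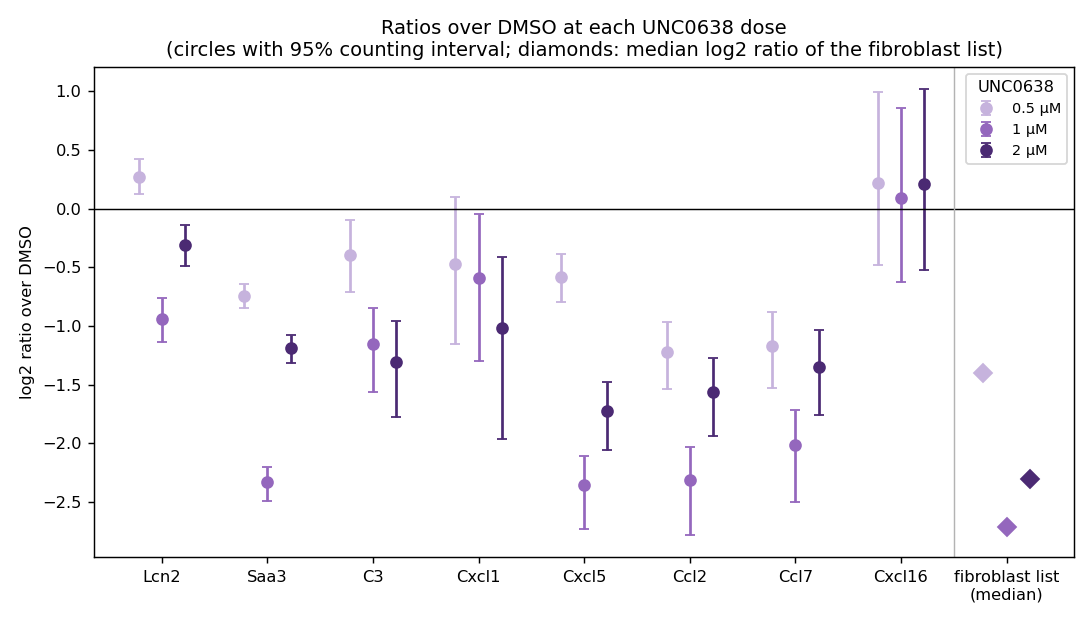
Log2 ratio of each UNC0638 dose over DMSO for the 8 genes over the filter (circles, CPM + 1, with 95% counting intervals) and the median log2 ratio of 19 fibroblast genes (diamonds, CPM + 1). Lcn2 lies at 0.27, −0.94 and −0.31, and Ccl2, Ccl7, Saa3 and Cxcl5 are lowest at 1 µM, as are the fibroblast genes.

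The other genes of these pathways were taken from fixed lists. Of 17 other acute-phase genes over the filter, 5, 13 and 8 were called lower than DMSO at the 3 doses, where 2.13%, 4.12% and 3.59% of all genes were. At each dose 0 were called higher, where 1.58%, 2.59% and 3.42% of all genes were. Serpina3n, a protease inhibitor, had 198 CPM with DMSO and 109, 31.2 and 71.2 CPM at the rising doses, and Hp had 161, 63.9, 15.4 and 23.4 CPM. Of 21 genes of NF-kB signalling, Vcam1, an adhesion molecule, was called lower at all 3 doses and Nfkb2, an NF-kB subunit, was called higher at 2 µM (14.4 and 47.2 CPM). The other 19 were not called at any dose. Of 16 genes of the Il6, STAT3 and C/EBP pathway, Osmr, a receptor subunit for oncostatin M, was called lower at 1 and 2 µM, and Cebpd, an acute-phase transcription factor, at 1 µM (42.5 and 11.9 CPM). Il1b, Il1a and Tnf did not pass the filter.

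The 2 libraries described as untreated or solvent-treated cultures on feeders, day 0 and DMSO, differed in most of the members. With DMSO, 5 of 8 genes were called higher and 1 lower, where 12.2% and 7.22% of all genes were. Lcn2 was 33.6-fold higher (interval 23.3 to 50.2), Saa3 21.2-fold (18.0 to 25.2), Cxcl1 13.9-fold (5.97 to 39.4), Cxcl5 11.6-fold (8.97 to 15.3) and C3 6.01-fold (4.41 to 8.32). Ccl2 and Ccl7 were not called, at log2 ratios of 0.73 and 0.36, and Cxcl16 was called lower at −1.31. With ratios centred on the germ-cell genes, 6 of 8 were higher and none lower (24.5% and 2.35% of all genes), since Ccl2 then had 1.19 and Cxcl16 −0.85. Of 17 other acute-phase genes, 10 were called higher and C2 lower. In the same pair, 18 of 19 fibroblast genes were called higher and 17 of 18 interferon-response genes lower, with medians of 2.88 and −3.10. DMSO and the experiment cannot be told apart.

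Of 23 genes of the members' receptors and processing, 7 to 16 were above 3 counts in a library, and the list summed to 226 to 356 CPM. Adam17, a protease that sheds membrane proteins, was the highest in every library, at 114 to 223 CPM. Adam10, a related protease that can release Cxcl16 from the membrane, had 29.1 to 62.3 CPM, and Crry, a complement regulator, 23.2 to 64.9 CPM. Among the receptors, Il8rb, the older symbol of the Cxcl1 and Cxcl5 receptor Cxcr2, had 82.4, 52.6 and 55.3 CPM at days 0, 4 and 9 and 11.9 to 28.9 CPM in the other 9 libraries. C3ar1 and C5ar1, receptors for complement fragments, reached 7.53 and 7.28 CPM in GFP-low and were at most 2.41 and 0.724 CPM in the unsorted libraries. Slc22a17, described as a receptor for lipocalin-2, had 3.13 CPM in GFP-low and 13.3 and 14.4 CPM in GFP-mid and GFP-high.

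For each member over the filter, the genes most like it were found by Pearson's r of log2(CPM + 1) over the 12 libraries, among 12442 genes that left out the members themselves. These values are descriptions, since the libraries of an experiment share their culture and depth. Of these, the nearest to Lcn2 were Dpysl2 (r = 0.858), the copper-binding acute-phase gene Cp (0.854) and Cfb (0.838). Nearest to Saa3 was Hp (0.970), and nearest to C3, after LOC667250 (0.903), were Hp (0.862) and Cfb (0.846). Cxcl1 was nearest to Cp (0.927) and Cxcl5 to Steap4 (0.953), a metal reductase of inflamed tissue. Ccl2 was nearest to Ckb (0.975), and Ccl7 to Serpine2 (0.982), a secreted protease inhibitor. Cxcl16 was nearest to Manba (0.940), a lysosomal enzyme gene. Among the members themselves, Ccl2 and Ccl7 had an r of 0.977 and Lcn2 and C3 one of 0.866, above that of Ckb with Ccl2 and of Dpysl2 with Lcn2, and Lcn2 and Ccl2 0.241.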

How the data were processed

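Libraries of 12 RNA samples were made with an adapted Smart-seq2 method, per the labels' protocols. The submitters' processing notes name Trim Galore, RSEM and mm10, without versions. Per the file headers, each of the deposited tables gave an expected count, TPM and FPKM for 27128 genes. The deposited expected counts were not normalized, the authors scaled the deposited TPM to gene length and a fixed total, and the deposited FPKM was not used. The 4 ATAC samples were not analysed here.

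Expected counts were rounded, and CPM were computed with TMM factors (0.912 to 1.07) from edgeR 4.0.16 in R 4.3.3. The filter, a mean of 1 CPM or more, left 14301 genes. Pairs of libraries were compared by the log2 ratio of CPM + 1, called at 2-fold, and no p-value was computed with 1 library per group. The steps were run on simulated counts with counting error only, for genes of at least 10 CPM and planted changes larger than 2-fold. That run says nothing about the spread between cultures or about genes at lower levels. Members and gene lists were chosen with earlier results of these data known. All members are described, genes of the lists could be named, and like genes are the nearest 3 by r with at least 50 counts in a library. Alternatives were scaling by DESeq2 1.42.0 or by totals alone, ratios of the deposited TPM, other pseudocounts (0.1 and 5), and the filter left out or set to 10 CPM. Symbols were matched to RefSeq GRCm38.p6, which also gave coordinates and promoters. Python 3.11.15, pandas 2.3.3, scipy 1.17.1 and matplotlib 3.10.9 were used.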

Additional observations from a re-analysis of the deposited data

How the results depend on the processing

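No paired analysis was possible because each RNA group had 1 library. With 1 library a group, no library could be left out either. No called ratio changed sign under any alternative run. The pseudocount moved the counts of members called: with 0.1, 1 gene instead of 0 was called at day 4 and 2 instead of 1 at day 9, and with 5, 4 instead of 7 were called between the densities, 1 instead of 2 from GFP-low to GFP-mid, and 3 instead of 5 from GFP-low to GFP-high. On the deposited TPM, 2 were called at day 9. The added genes at days 4 and 9 were Cxcl1. With 0.1, Cxcl1 was also called from GFP-low to GFP-mid (1.47) and Cxcl16 between the densities (1.06). With 5, those lost in these counts were Saa3, Cxcl1, Cxcl5 and Ccl7. Cxcl1 was also lost at 2 µM (-0.69), Cxcl16 for DMSO over day 0 (-0.96), and Cxcl1 (-0.45) and Cxcl5 (-0.61) for GFP-low over the mesenchymal-like library. DESeq2 size factors, total counts, no filter and a filter at 10 CPM moved no count of members called in both directions together by over 1.5 times. The filter at 10 CPM left out Cxcl1 and Cxcl16. As a result 1 instead of 2 was called higher from GFP-low to GFP-high and 0 instead of 1 lower for DMSO over day 0. The higher calls of Cxcl1 between the densities and for DMSO over day 0 were lost as well. So were its lower calls at 2 µM and for GFP-low over the mesenchymal-like library. Centring on the germ-cell genes was added after seeing the data. It moved the median of all genes by over 0.1 in 6 of the 10 comparisons, with medians of 0.46 for DMSO over day 0 and -0.48 for GFP-low over the mesenchymal-like library. Ccl2 was then called with DMSO over day 0 (log2 ratio 1.19 instead of 0.73) and Cxcl16 was not (-0.85). At 2 µM Cxcl1 was not called (-0.87), and Cxcl16 was called between the densities (1.18). Lcn2 kept its calls under every alternative run.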

Other observations

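Cxcl13, which attracts B cells, had 115.5, 138 and 6.92 CPM from GFP-low to GFP-high and 0 counts in all 9 unsorted libraries. Cxcl12, a stromal chemokine, had 87.0 CPM with DMSO and 26.8, 9.24 and 14.4 CPM at the rising UNC0638 doses, beside 6.87 CPM at day 0. Cx3cl1, a membrane-bound chemokine, had 54.1, 52.0 and 65.8 CPM at days 0, 4 and 9, and 12.2, 22.2 and 32.1 CPM from GFP-low to GFP-high, the opposite order to Lcn2. Steap4 had 24.4, 25.98 and 24.1 CPM at days 0, 4 and 9 and 89.0 CPM with DMSO, but 0 counts in the epithelial-like and GFP-low libraries.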
